A study of Mus musculus with 38 samples.

Results

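The 10 genes described here were 2 metallothioneins (Mt1 and Mt2), 5 members of the Hsp70 superfamily (Hspa1a, Hspa1b, Hspa8, Hspa5 and Hsph1), 2 cytosolic Hsp90 genes (Hsp90aa1 and Hsp90ab1) and Hsf1, taken by gene symbol from a table of 23125 genes. All of them were measured as FPKM, the number of sequenced fragments scaled by transcript length and library size, in RNA that sucrose gradients had separated into a polysome fraction, in which mRNA carries several ribosomes, and a lighter non-polysome fraction. The list was drawn up with results of these data in view. Mt2 in particular was chosen by its level in polysomes of M-phase two-cell embryos against that in MII oocytes, so no test is given for Mt1 or Mt2 wherever polysomes of M-phase two-cell embryos enter, and their values there are a description.

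The material came from ICR mice. The labels call all groups other than the M-phase embryos WT. GV oocytes (fully grown, arrested in prophase of meiosis I) were isolated from hormone-primed females with IBMX, an inhibitor of meiotic resumption, and MII oocytes (arrested at metaphase II) had matured in M16 medium in vitro. Zygotes were interphase embryos collected when they were recovered from oviducts of superovulated, mated females, and two-cell embryos had been cultured in KSOM medium. M-phase embryos, named zygote M and two-cell M, were obtained with nocodazole, a drug that depolymerises microtubules, and their labels carry the word meiosis. All samples were treated with cycloheximide, which holds ribosomes on mRNA. Stage, culture and nocodazole cannot be told apart in these groups. Each of the 12 groups (6 stages in 2 fractions) had 3 libraries, named A to C and, for zygotes, B to D. The 2 samples of zygote A had no column in the table. The labels do not say whether replicates came from separate animals, so p-values measure the spread between these samples, which may be partly technical.

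Metallothioneins are small cysteine-rich proteins that bind zinc and copper, and their genes are switched on by the metal-responsive transcription factor MTF1. Hsp70 proteins bind unfolded segments of client proteins in a cycle driven by ATP, Hsp110 proteins such as Hsph1 exchange their nucleotide, and Hsp90 proteins receive partly folded clients from them. HSF1 is the transcription factor that raises heat shock genes under stress, and in mouse oocytes it is a maternal product. Transcription is silent in the fully grown oocyte and resumes in the embryo, with its main wave at the two-cell stage, where Hsp70 genes are among the early genes known to be expressed.

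Sequences before the transcription start were read for the genes whose levels changed most at the two-cell stage or whose reads cannot be told apart. RefSeq start-site windows were matched for 6 of the 10 genes (Mt1, Mt2, Hspa1a, Hspa1b, Hspa5 and Hsph1, build GRCm38.p6), and the 250 bases before the start are used. For Mt1 and Mt2, which are neighbours on the plus strand (GRCm38, chr8:94179082-94180327 and chr8:94172664-94173568), capitals mark the core of the metal response element, the site MTF1 binds, searched as TGCACNC or TGCGCNC on both strands. The RefSeq starts of Mt1 and Mt2 are not the ends of the gene bounds just given, so the windows do not abut them. The Mt1 window is chr8:94178839-94179088 on the plus strand and the Mt2 window is chr8:94172368-94172617 on the plus strand.
Mt1: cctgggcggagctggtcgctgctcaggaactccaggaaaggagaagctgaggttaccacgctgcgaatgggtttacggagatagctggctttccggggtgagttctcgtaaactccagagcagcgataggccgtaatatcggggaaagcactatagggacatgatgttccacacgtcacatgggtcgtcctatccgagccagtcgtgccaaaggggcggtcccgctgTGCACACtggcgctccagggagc
Mt2: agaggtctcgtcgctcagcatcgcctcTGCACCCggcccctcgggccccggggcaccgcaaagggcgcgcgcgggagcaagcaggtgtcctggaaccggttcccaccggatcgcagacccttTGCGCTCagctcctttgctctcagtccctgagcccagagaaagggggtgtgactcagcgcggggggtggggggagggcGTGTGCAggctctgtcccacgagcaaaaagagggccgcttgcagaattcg
The Mt1 window held 1 match and the Mt2 window 3 matches that did not overlap, the last of them on the minus strand. Bases after these RefSeq starts were not searched. The counts are therefore of these windows, and do not show which gene has more metal response elements nearby. Of 32851 windows of the same length, 21.4% held at least 1 such match and 1.26% at least 3. For Hspa1a (gene at chr17:34969190-34972156, minus strand), capitals mark a pair of inverted heat shock element units, the sites HSF1 binds, searched as GAANNTTC or TTCNNGAA on both strands (chr17:34972157-34972406, minus strand).
Hspa1a: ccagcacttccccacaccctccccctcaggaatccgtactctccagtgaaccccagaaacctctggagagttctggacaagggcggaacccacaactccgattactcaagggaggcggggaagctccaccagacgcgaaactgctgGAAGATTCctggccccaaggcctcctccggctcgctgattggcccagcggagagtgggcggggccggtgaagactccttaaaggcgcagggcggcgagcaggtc
The windows of Hspa1a, Hspa1b and Hsph1 each held 1 match, that of Hspa5 held 0, and 12.8% of the 32851 windows held at least 1. Hspa1b lies at chr17:34956436-34959238 on the minus strand, and its window was identical to that of Hspa1a at 98.8% of its 250 bases, with 3 differences. In GENCODE transcripts the coding sequences of Hspa1a and Hspa1b were 99.4% identical, so reads of the 2 genes can be assigned to either and their separate values are uncertain. The coding sequences of Mt1 and Mt2, both 186 bases long, were 79.6% identical.

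Sequencing depth, recovered from the lowest step of the values of genes with 1 transcript, ran from 8491070 to 26658700 fragments per library (median 21047150). The smallest value in every library was 0.01 FPKM, an offset that stands for no fragment, and 26.2% to 63.1% of genes were at it. The highest share was in non-polysome two-cell M replicate C. Oocyte markers (Zp3, Gdf9, Bmp15 and 7 others) summed to between 6252 and 8220 FPKM in the GV libraries and to between 14.1 and 222 FPKM in two-cell M. Two-cell markers (7 genes in the table) did not separate the stages in polysomes. They summed there to 176 to 323 FPKM in GV, 121 to 187 in two-cell and 10.3 to 135 in two-cell M libraries. Outside polysomes they summed to 141 to 204, 414 to 711 and 24.8 to 360 FPKM in the same stages. Summed markers of granulosa and cumulus cells (9 genes in the table), oviduct epithelium (4) and sperm (4) were at most 34.6, 1.37 and 6.33 FPKM in any library. Values were compared as log2 FPKM with limma over 7967 genes whose geometric mean reached 0.1 FPKM, and a gene was called at an adjusted p under 0.05 and a fold change beyond 2. All 10 genes passed that minimum, Hsph1 barely, at a geometric mean of 0.152 FPKM. Their spread between replicates differed widely, from 0.66 on the log2 scale for Hsf1 to 4.04 for Hspa1b, against a median of 1.63 over all genes tested.

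Mt1 and Mt2 mRNA was scarce in oocytes and zygotes and abundant in two-cell embryos, in both fractions. Mt1 in polysomes was at 1.51, 1.59 and 0.399 FPKM in GV oocytes, at 1.63, 0.359 and 2.77 FPKM in MII oocytes and at 0.903, 0.284 and 0.079 FPKM in zygotes. It stood at 1.68, 1.88 and 0.985 FPKM in zygote M, at 201, 304 and 325 FPKM in two-cell embryos and at 1014, 786 and 660 FPKM in two-cell M. Every two-cell library was thus far above every earlier one, and the lowest two-cell library held 72.6 times the level of the highest of the 12 earlier polysome libraries. Against zygote M, polysomal Mt1 rose in two-cell embryos by 7.54 ± 0.72 (SE) on the log2 scale (limma, adjusted p = 2.81e-08, n = 3 and 3), and against GV oocytes it was higher by 8.10 (GV against two-cell log2 fold change -8.10, adjusted p = 5.41e-09).

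Outside polysomes Mt1 was at 834, 714 and 775 FPKM in two-cell embryos and at 971, 1101 and 1064 FPKM in two-cell M. The 12 earlier non-polysome libraries lay between 0.255 and 3.84 FPKM, and the lowest two-cell library was 186 times the highest of them. The rise from zygote M to two-cell embryos was 10.54 ± 0.72 on the log2 scale (limma, adjusted p = 1.78e-11). Ranked by FPKM among all 23125 genes, Mt1 moved from places 3100 to 11020 in earlier polysomes to places 49 to 64 in two-cell polysomes and 17 to 32 in two-cell M polysomes.

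Mt2 was likewise scarce at the earlier stages and abundant in two-cell embryos, where its level was below that of Mt1 in every library. In polysomes it was at the 0.01 offset in GV replicates A and B and MII replicates A and B, and at 0.0546 and 0.114 FPKM in their replicates C, which stand for about 1 fragment or less. Zygotes held 0.207, 0.118 and 0.485 FPKM and zygote M held 1.79, 1.16 and 0.347 FPKM. Two-cell polysomes held 48.6, 66.0 and 87.6 FPKM, and two-cell M polysomes held 383, 216 and 275 FPKM. The lowest two-cell library was 27.2 times the highest earlier polysome library, and no fold change is given against GV or MII oocytes, whose level is near a single fragment. Polysomal Mt2 rose from zygote M to two-cell embryos by 6.19 ± 1.21 on the log2 scale (limma, adjusted p = 0.00137), and was higher in two-cell embryos than in GV oocytes (adjusted p = 5.51e-08).

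Non-polysome Mt2 was at 144, 93.1 and 175 FPKM in two-cell embryos and at 673, 725 and 674 FPKM in two-cell M. The earlier non-polysome libraries lay between the offset and 1.27 FPKM except GV replicate B, at 5.16 FPKM, which stands apart from GV replicates A and C at 0.0978 and 0.119 FPKM. The rise from zygote M to two-cell embryos was 9.04 ± 1.21 on the log2 scale (limma, adjusted p = 2.32e-06). These 4 rises of Mt1 and Mt2 were called with each library left out in turn and under all other settings tried.

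**Figure D1:**
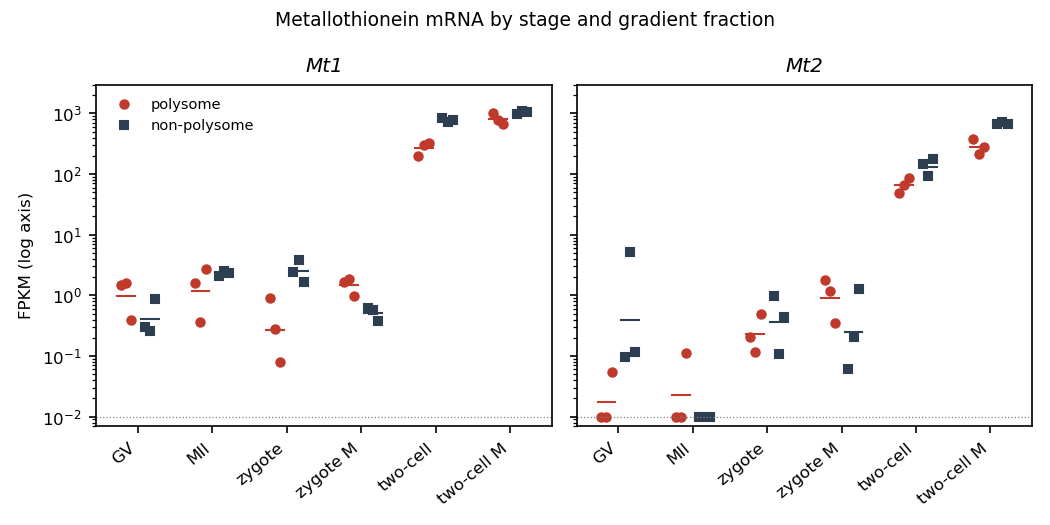
Levels of Mt1 and Mt2 in FPKM (vertical axis, logarithmic) at 6 stages (horizontal axis). Red circles are polysome libraries, dark squares are non-polysome libraries, short lines are geometric means of 3 libraries, and the dotted line is the 0.01 offset of the table. All two-cell and two-cell M libraries lie above all earlier ones for both genes.

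From interphase to M-phase two-cell embryos the polysomal levels of both genes did not overlap. The lowest two-cell M library held 2.03 times the Mt1 level and 2.47 times the Mt2 level of the highest two-cell library, and the means were 2.97 and 4.32 times as high. Outside polysomes the groups did not overlap either, but the differences missed the threshold, at 0.43 ± 0.72 for Mt1 (limma, adjusted p = 0.696) and 2.38 ± 1.21 on the log2 scale for Mt2 (adjusted p = 0.133). With only the libraries of the 2 groups in the fit, the Mt2 difference was called (adjusted p = 0.0112), as it was with 1 FPKM added (0.000124). The ratio of Mt1 to Mt2, both per length, was between 3.71 and 4.60 in two-cell polysomes and between 2.40 and 3.64 in two-cell M polysomes. Outside polysomes it was between 4.42 and 7.66 in two-cell embryos and between 1.44 and 1.58 in two-cell M, so in both fractions the 2 stages did not overlap.

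Among the earlier stages Mt1 was called in 4 comparisons, all at levels under 4 FPKM. Non-polysome Mt1 was at 0.297, 0.255 and 0.877 FPKM in GV oocytes and at 2.11, 2.51 and 2.33 FPKM in MII oocytes, a rise of 2.51 ± 0.72 on the log2 scale (limma, adjusted p = 0.0164). That call was lost without MII replicate B (adjusted p = 0.0527), GV replicate A (0.0627) or GV replicate B (0.0921), and with quantile normalization (0.0861). In zygotes the non-polysome fraction held 2.39, 3.84 and 1.65 FPKM, all above the polysome fraction, at a polysome minus non-polysome difference of -3.18 ± 0.72 on the log2 scale (adjusted p = 0.0161). Without non-polysome zygote replicate B or C or polysome zygote replicate C or D, that adjusted p was 0.0752, 0.0998, 0.0665 and 0.192. From zygote to zygote M polysomal Mt1 rose by 2.42 ± 0.72 (adjusted p = 0.0439) and non-polysome Mt1, at 0.623, 0.584 and 0.383 FPKM in zygote M, fell by 2.26 ± 0.72 on the log2 scale (adjusted p = 0.0441). The polysomal rise was called without zygote replicate B (adjusted p = 0.00683) but not without any of the other 5 libraries (0.0552 to 0.370), and the non-polysome fall was lost without any 1 of its 6 libraries (0.0636 to 0.179). Of the 8 other settings, 3 kept the former call and 4 the latter. Zygote replicate D in polysomes, the lowest library, held between 0.881 and 1.74 fragments of Mt1, depending on the transcript length used.

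Mt2 was also called between earlier groups of which at least 1 had libraries at the offset. Outside polysomes it was lower in MII than in GV oocytes, where all 3 MII libraries were at the offset and GV replicate B, at 45.9 to 60.4 fragments, was the only GV library far above 1 fragment (limma, adjusted p = 0.00300, and 0.0512 without GV replicate B). It was higher there in zygotes, at 0.985, 0.110 and 0.437 FPKM, than in MII oocytes (adjusted p = 0.0122, and 0.0935 and 0.0563 without zygote replicates B and D). In GV oocytes it was lower in polysomes than in the non-polysome fraction (adjusted p = 0.0291, and 0.314, 0.136 and 0.104 without non-polysome GV replicate B and polysome GV replicates A and B). Of the 8 other settings, 3 to 6 kept these 3 calls. In polysomes the MII libraries were below those of zygote M, a description, since the MII values took part in the choice of Mt2.

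Both alpha globins among the blood markers were higher at the two-cell stage too. Hba-a1, an alpha globin, was at 33.5 to 82.9 FPKM in two-cell polysomes, 97.3 to 160 FPKM outside the polysomes of two-cell embryos, 22.7 to 41.4 FPKM in two-cell M polysomes and 0.01 to 51.7 FPKM outside them. Hba-a2 was at 0.234 to 0.755, 2.37 to 2.64, 0.627 to 1.62 and 0.01 to 1.38 FPKM in the same groups and at most 0.111 FPKM in any earlier library. The summed level of the 4 blood markers present in the table was at most 1.33 FPKM in every earlier library, while the beta globins Hbb-bs and Hbb-bt were at or near the offset at the two-cell stage too. Granulosa markers summed to 1.28, 34.6 and 0.09 FPKM in non-polysome two-cell replicates A to C, where Mt1 and Mt2 were lowest in replicate B. Non-polysome two-cell M replicate B had Hba-a1 at the offset and Mt1 and Mt2 at 1101 and 725 FPKM, the highest of its group. These are single libraries, and the part of blood or granulosa RNA in the metallothionein result was not tested. FPKM is a share of a library, so fewer cells, less RNA per cell and a larger amount of other RNA cannot be told apart. The antisense gene Gm45774, which overlaps Mt2, was at most 0.841 FPKM in any two-cell or two-cell M library. In zygote M it reached 4.04 FPKM outside polysomes and 0.518 FPKM in them, against at most 1.27 and 1.79 FPKM of Mt2, and reads of the 2 genes cannot be told apart without strand.

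Of the Hsp70 genes, Hspa8, the constitutive cytosolic Hsc70 (chr9:40800984-40810087, plus strand), had its highest levels in MII oocytes. In polysomes it was at 1.52, 1.18 and 4.79 FPKM in GV oocytes, at 30.2, 12.9 and 16.6 FPKM in MII oocytes and at 6.67, 6.74 and 5.30 FPKM in zygotes. In zygote M it was at 0.310, 0.0701 and 0.0335 FPKM, in two-cell embryos at 0.951, 0.839 and 0.253 FPKM and in two-cell M at 0.0310, 0.999 and 1.68 FPKM. The 3 MII libraries were above all other polysome libraries, the zygote libraries came next, and GV, two-cell M, two-cell and zygote M followed, each overlapping the next. From zygote to zygote M Hspa8 fell by 6.11 on the log2 scale, with an SE of 1.44 (limma, adjusted p = 0.00716), and the call was lost without zygote M replicate C (adjusted p = 0.0512). With 0.1 or 1 FPKM added the log2 fold change was -4.91 or -2.67, and it was called. Outside polysomes Hspa8 was at 3.60, 4.4 and 3.64 FPKM in zygotes and at 0.0375, 0.371 and 0.488 FPKM in zygote M, without overlap. That log2 fold change of -4.35 just missed the threshold (adjusted p = 0.0504) and was called with 1 FPKM added (0.00169), with quantile normalization (0.0136) and without non-polysome two-cell M replicate C (0.0379).

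Hspa8 was also higher in MII polysomes than in those of zygote M, by 7.70 ± 1.44 on the log2 scale (limma, adjusted p = 0.000426), and than in those of two-cell M, by 5.64 ± 1.44 (adjusted p = 0.00184). Both calls stood with each library left out in turn, and the differences were 4.12 and 3.48 with 1 FPKM added. In the comparison with two-cell M the median of all genes was 2.64. The rise from GV to MII oocytes, whose libraries did not overlap, was 3.19 ± 1.44 and missed the threshold with all libraries in the fit (adjusted p = 0.226). It was called with only the libraries of GV and MII polysomes (adjusted p = 0.00795), with quantile normalization (0.0201) and with 1 FPKM added (1.64e-05). In the non-polysome fraction the same rise, from 1.05, 0.292 and 1.15 FPKM to 17.2, 12.4 and 11.1 FPKM, was 4.23 ± 1.44 on the log2 scale (adjusted p = 0.0424) and was lost without any 1 of its 6 libraries (0.0519 to 0.183).

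Hspa5 encodes BiP, the Hsp70 of the endoplasmic reticulum and a reporter of stress in that compartment (chr2:34771970-34777547, plus strand). Its polysomal level was 5.19, 3.41 and 11.9 FPKM in GV oocytes, 1.42, 1.68 and 0.881 FPKM in MII oocytes and 4.82, 3.68 and 4.95 FPKM in zygotes. In zygote M it was 0.0185, 0.044 and 0.039 FPKM, at most 2.63 fragments a library. The zygote M libraries lay below all 15 other polysome libraries, and polysomal Hspa5 fell by 7.13 on the log2 scale from zygotes, with an SE of 1.66 (limma, adjusted p = 0.00628), called with each library left out (0.0208 to 0.0374) and under the 8 other settings. The size of this fall depends on the offset, and the log2 fold change was -5.09 with 0.1 FPKM and -2.40 with 1 FPKM added. The polysomal level was 0.57, 0.692 and 0.0475 FPKM in two-cell embryos and 1.27, 0.644 and 0.252 FPKM in two-cell M, and neither step passed the threshold (adjusted p = 0.350 and 0.618). MII oocytes were above zygote M by 5.34 ± 1.66 (adjusted p = 0.0316), a call lost without any 1 of the 6 libraries (0.0634 to 0.109), with no minimum (0.0563) and with 1 FPKM added, where the difference was 1.16 (0.139). Outside polysomes Hspa5 went from 1.90, 3.56 and 4.28 FPKM in zygotes to 0.0181, 1.12 and 0.01 FPKM in zygote M. It fell by 5.71 on the log2 scale (adjusted p = 0.0249), which was called without zygote M replicate B (0.00232) but not without any of the other 5 libraries (0.0506 to 0.125). The call was also lost with only the libraries of the groups compared and with the replicate block. Among the other settings the log2 fold change was as small as -1.67.

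Hsph1, the Hsp110 nucleotide exchange factor (chr5:149614287-149636376, minus strand), had the lowest geometric mean of the 10 genes. All polysome libraries lay between 0.01 and 0.828 FPKM, and the difference from zygotes (0.379, 0.532 and 0.306 FPKM) to zygote M (0.0271, 0.105 and 0.01 FPKM) gave a log2 fold change of -3.70 that missed the threshold (limma, adjusted p = 0.177), although the groups did not overlap. It was called without non-polysome two-cell M replicate C, a library of another group that widens the spread (adjusted p = 0.0418), and with only the libraries of the 2 groups (0.0189). In that library Hsph1 was at 14.9 FPKM, against 0.01 and 0.341 FPKM in replicates A and B. The rise of non-polysome Hsph1 from two-cell to two-cell M embryos, 4.89 ± 1.49 on the log2 scale (adjusted p = 0.0113), was lost without that library (0.176) and with only the libraries of the 2 groups (0.306), and was 1.46 with 1 FPKM added, and the groups overlapped at the offset.

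**Figure D2:**
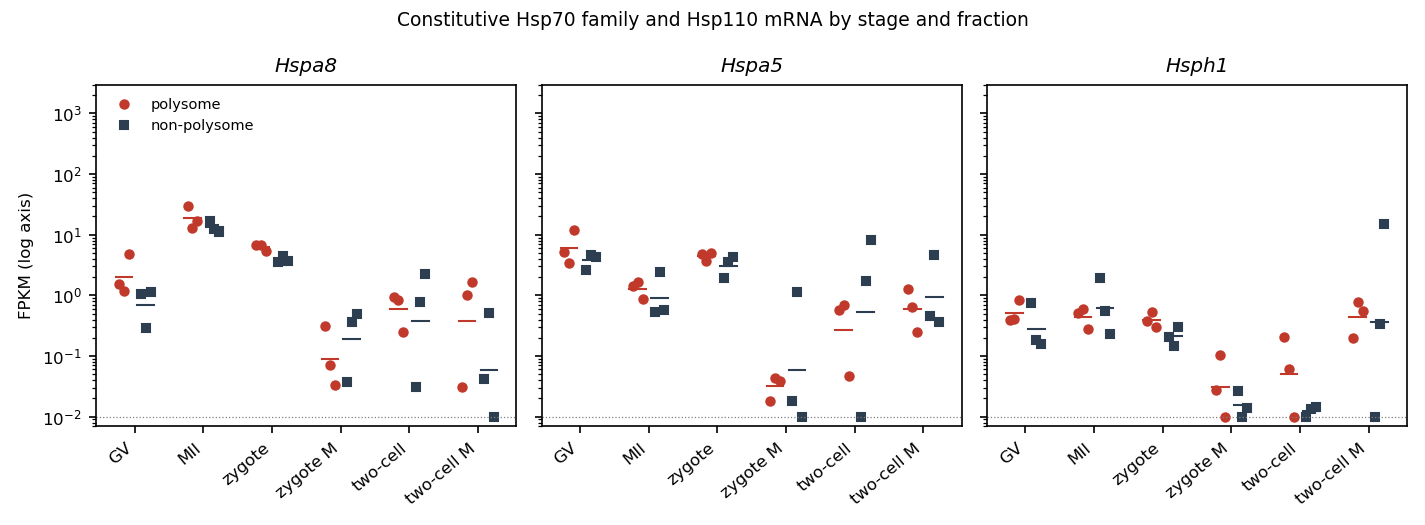
Levels of Hspa8, Hspa5 and Hsph1 in FPKM (vertical axis, logarithmic) at 6 stages. Red circles are polysome libraries, dark squares are non-polysome libraries, short lines are geometric means of 3 libraries, and the dotted line is the 0.01 offset. Hspa8 peaks in MII oocytes, Hspa5 is lowest in zygote M polysomes, and Hsph1 has a single high library, non-polysome two-cell M replicate C at 14.9 FPKM.

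The stress-inducible pair Hspa1a and Hspa1b had the widest spread between replicates of the 10 genes, at 3.48 and 4.04 on the log2 scale. Polysomal Hspa1a was steady in MII oocytes, at 4.0, 4.49 and 3.78 FPKM, and in zygotes, at 5.06, 6.60 and 5.84 FPKM. In two-cell polysomes it was at 0.0265, 11.4 and 0.01 FPKM. Its non-polysome levels were 0.0554, 0.645 and 0.0527 FPKM in zygote M and 29.6, 55.7 and 11.0 FPKM in two-cell embryos. Replicates A and C of zygote M held 3 fragments each, and all 3 two-cell libraries were above them, by 7.73 ± 2.67 on the log2 scale (limma, adjusted p = 0.0347). The call was lost without two-cell replicates A or B or zygote M replicates A or C (adjusted p = 0.0706, 0.0948, 0.101 and 0.106). It was also lost with no minimum and with the replicate block, and among the other settings the log2 fold change was as small as 4.49. Two-cell M non-polysome libraries held 75.5, 0.327 and 71.3 FPKM of Hspa1a, with replicate B far below the others. Hspa1b in the same libraries was at 1.66, 34.0 and 2.86 FPKM, highest in replicate B, so the low Hspa1a value there may reflect the assignment of reads. The gene Gm20481, which overlaps Hspa1a in the annotation, was not used here.

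Hspa1b was not called in any comparison with all libraries and no block in the fit. Its non-polysome level was 0.169, 52.7 and 14.3 FPKM in two-cell embryos and 0.01, 30.2 and 0.01 FPKM in zygote M, so replicate B was the highest library of both groups. In two-cell polysomes, replicate B at 8.55 FPKM was again the only one above the offset, and in two-cell M polysomes replicate B at 13.2 FPKM stood above 0.01 and 0.203 FPKM. Over the 12 group means of log2 FPKM the 2 genes had a Pearson r of 0.948, a description over points that share libraries and, for this pair, reads.

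Hsp90aa1, the inducible cytosolic Hsp90 (chr12:110690605-110702728, minus strand), had the highest FPKM of the 7 chaperone genes outside polysomes in oocytes and zygotes. Non-polysome levels were 61.6, 78.6 and 64.7 FPKM in GV oocytes, 23.5, 16 and 16.8 FPKM in MII oocytes and 22.4, 29.8 and 22.0 FPKM in zygotes. They were 23.2, 23.3 and 36.3 FPKM in zygote M, 6.12, 3.18 and 2.48 FPKM in two-cell embryos and 8.50, 5.90 and 0.1 FPKM in two-cell M. The GV libraries were above all others and the two-cell libraries below all libraries of earlier stages. From zygote M to two-cell embryos it fell by 2.89 on the log2 scale, with an SE of 1.0 (limma, adjusted p = 0.0366), called without two-cell replicate A (0.0377) but not without any of the other 5 libraries (0.0622 to 0.107).

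Polysomal Hsp90aa1 was at 10.9, 14.7 and 18.8 FPKM in GV oocytes, 17.7, 10.9 and 6.40 FPKM in MII oocytes and 8.35, 9.78 and 10.2 FPKM in zygotes. It was at 0.766, 3.17 and 1.06 FPKM in zygote M, 0.469, 4.32 and 0.843 FPKM in two-cell embryos and 1.24, 3.22 and 3.77 FPKM in two-cell M, below every oocyte and zygote library. GV oocytes exceeded two-cell embryos by 3.59 ± 1.0 on the log2 scale (limma, adjusted p = 0.0134), lost without two-cell replicates A or C or GV replicate C (0.0803, 0.0517 and 0.0507). The difference of zygote M from zygote was -2.78, with an adjusted p of 0.113 that became 0.00472 without non-polysome two-cell M replicate C and 0.00738 with only the libraries of the 2 groups. In zygote M polysomes held less Hsp90aa1 than the non-polysome fraction, at a log2 difference of -4.30 (adjusted p = 0.0208). Without non-polysome zygote M replicate C or polysome replicates A or C that adjusted p was 0.0503, 0.120 and 0.0887. The polysome fraction was also below the non-polysome one without overlap in GV oocytes (-2.23, adjusted p = 0.213) and zygotes (-1.38). The former was called with 1 FPKM added (0.00809), with only the libraries of the 2 groups (0.0213) and without non-polysome two-cell M replicate C (0.0327), and the latter with only the libraries of the 2 groups (0.00368).

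Hsp90ab1, the constitutive cytosolic Hsp90 (chr17:45567775-45573271, minus strand), had the narrowest range of polysomal group means after Hsf1, the highest being 7.64 times the lowest. In polysomes it was at 6.84, 5.97 and 21.2 FPKM in GV oocytes, 6.55, 4.06 and 3.75 FPKM in MII oocytes and 1.78, 1.38 and 1.59 FPKM in zygotes. Zygote M held 1.5, 2.88 and 0.924 FPKM, two-cell embryos 5.03, 1.20 and 3.12 FPKM and two-cell M embryos 10.3, 11.4 and 14.7 FPKM. The two-cell M libraries were above all two-cell libraries, by 2.17 ± 1.04 on the log2 scale, without passing the threshold (limma, adjusted p = 0.105). It passed with quantile normalization (2.48, adjusted p = 0.0251) and with 1 FPKM added (1.77, 0.0221). The median change of all genes in this comparison was -1.17, and 0.22 after quantile normalization. Outside polysomes the rise from 0.0576, 6.01 and 2.65 FPKM to 6.27, 34.6 and 5.03 FPKM was 3.40 ± 1.04 (adjusted p = 0.0113), although the groups overlapped, and it was lost without two-cell replicate A (0.186) or two-cell M replicate B (0.0794) or with only the libraries of the 2 groups (0.324).

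Hsf1 (chr15:76477422-76501913, plus strand) had the least spread between replicates of the 10 genes and 1 group far from the rest. In polysomes it was at 36.3, 26.5 and 25.6 FPKM in GV oocytes, 14.1, 9.74 and 14.8 FPKM in MII oocytes, 9.90, 9.16 and 9.68 FPKM in zygotes and 18.2, 24.8 and 18.4 FPKM in zygote M. Two-cell embryos held 7.35, 11.1 and 8.71 FPKM and two-cell M embryos 3.46, 3.82 and 9.67 FPKM. GV oocytes were above two-cell embryos by 1.71 ± 0.60 on the log2 scale (limma, adjusted p = 0.0476), a call lost without any 1 of the 6 libraries (0.0696 to 0.146). GV oocytes were above zygotes by 1.60 without passing the threshold (adjusted p = 0.128), and this was called with 1 FPKM added (0.00121), quantile normalization (0.0175), only the libraries of the 2 groups (0.00389) and without non-polysome two-cell M replicate C (0.0155). The differences of MII from GV (-1.20, adjusted p = 0.291) and of zygote M from zygote (1.08, 0.405) were called under the first 3 of these settings.

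Outside polysomes Hsf1 was between 6.41 and 21.2 FPKM in all 15 libraries outside two-cell M. In two-cell M it was at 0.0936, 0.0629 and 0.722 FPKM, below every other library of either fraction. It fell from two-cell embryos (7.48, 6.41 and 11.4 FPKM) by 5.66 on the log2 scale, with an SE of 0.60 (limma, adjusted p = 1.55e-08), where the median of all genes was -1.14. Replicates A and B of two-cell M held 0.216 to 3.20 fragments, and the log2 fold change was -2.87 with 1 FPKM added and -2.63 with quantile normalization. Within two-cell M, polysomes held more Hsf1 than the non-polysome fraction by 4.96 ± 0.60 (adjusted p = 7.92e-07), or by 2.28 with 1 FPKM added, and the groups did not overlap. Both calls stood with each library left out in turn. The second was lost with only the 6 two-cell M libraries in the fit (adjusted p = 0.208), where 0.157% of all genes were called. At the other 5 stages the difference of Hsf1 between fractions was between 0.06 and 1.23 on the log2 scale and was not called. In GV oocytes, where the fractions did not overlap, it was called with 1 FPKM added (1.17, adjusted p = 0.0140).

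**Figure D3:**
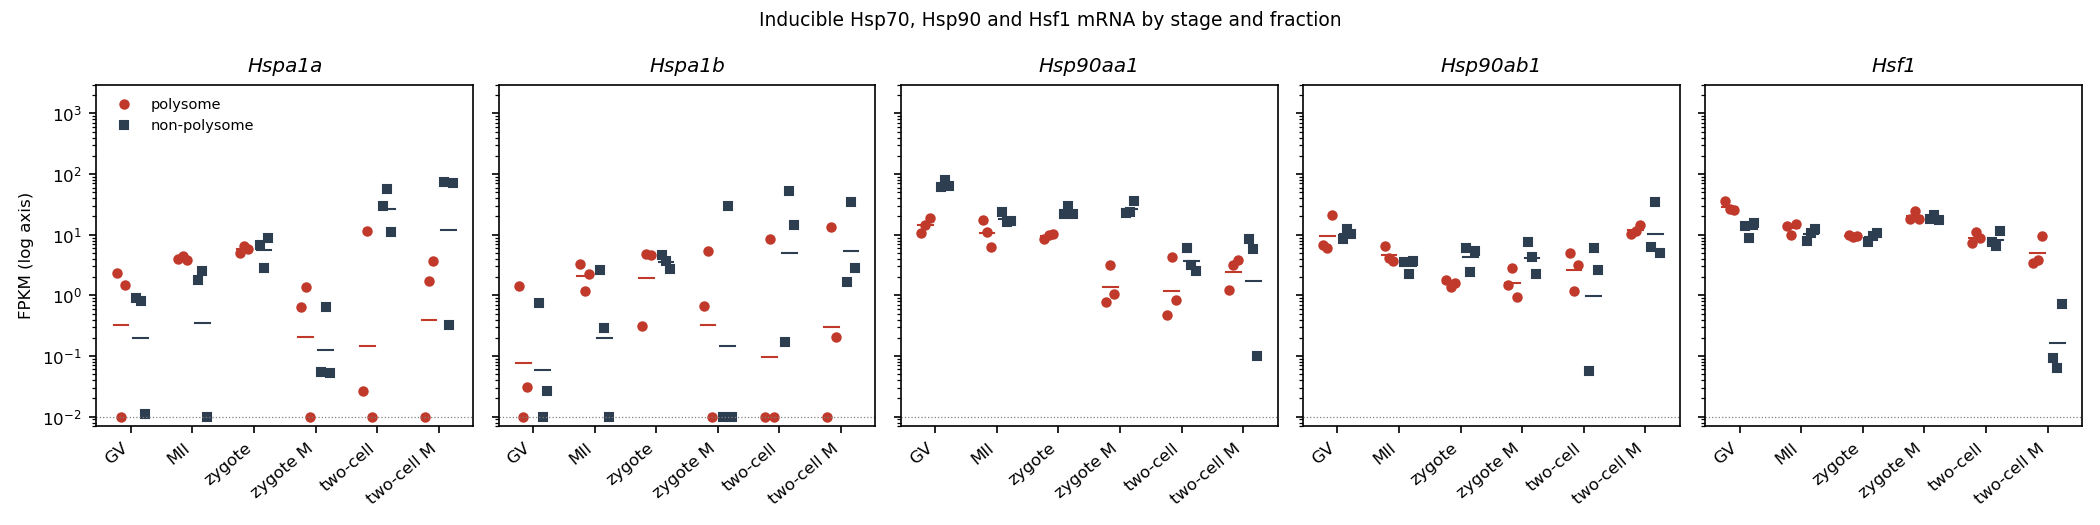
Levels of Hspa1a, Hspa1b, Hsp90aa1, Hsp90ab1 and Hsf1 in FPKM (vertical axis, logarithmic) at 6 stages. Red circles are polysome libraries, dark squares are non-polysome libraries, short lines are geometric means of 3 libraries, and the dotted line is the 0.01 offset. Hsf1 in the non-polysome fraction of two-cell M, at 0.0629 to 0.722 FPKM, lies below every other Hsf1 library, while Hspa1a and Hspa1b scatter from the offset to over 50 FPKM.

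Counts of the 10 genes called are given with the share of all 7967 genes called in the same comparison. In polysomes 0 of 10 were called in MII against GV (6.11% of all genes) and 0 of 10 in zygote against MII (4.57%), where 1 and 2 of them had an unadjusted p under 0.05. In zygote M against zygote 3 of 10 were called (5.75%), namely Mt1, Hspa8 and Hspa5. In two-cell against zygote M 2 of 10 were called (6.19%), both metallothioneins, and 0 of the 8 genes tested between interphase and M-phase two-cell embryos (36.3%), where 2 had an unadjusted p under 0.05. Between interphases and between M-phases the counts were 0 of 10 in GV against zygote (5.61%, with 4 at an unadjusted p under 0.05), 4 of 10 in GV against two-cell (16.7%), 3 of 10 in MII against zygote M (12.4%, or 2 of 9 with Mt2 set aside) and 1 of 8 in MII against two-cell M (53%). Counts over 10 genes that involve MII polysomes include Mt2, which was selected in part on its MII values. The 2 genes with an unadjusted p under 0.05 in zygote against MII were Mt1 and Mt2, so that of Mt2 is a description. These comparisons share libraries of every stage and are not independent.

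In the non-polysome fraction 3 of 10 genes were called in MII against GV (16.6% of all genes), 1 of 10 in zygote against MII (3.28%) and 2 of 10 in zygote M against zygote (10.4%). The counts were 4 of 10 in two-cell against zygote M (22.9%) and 3 of 10 in M-phase against interphase two-cell embryos (36.1%). In the last comparison the share of these genes called was near that of all genes. The median of all genes was at -1.14 there and at -0.87 in zygote M against zygote, and after quantile normalization at 0.21 and 0.20.

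**Figure D4:**
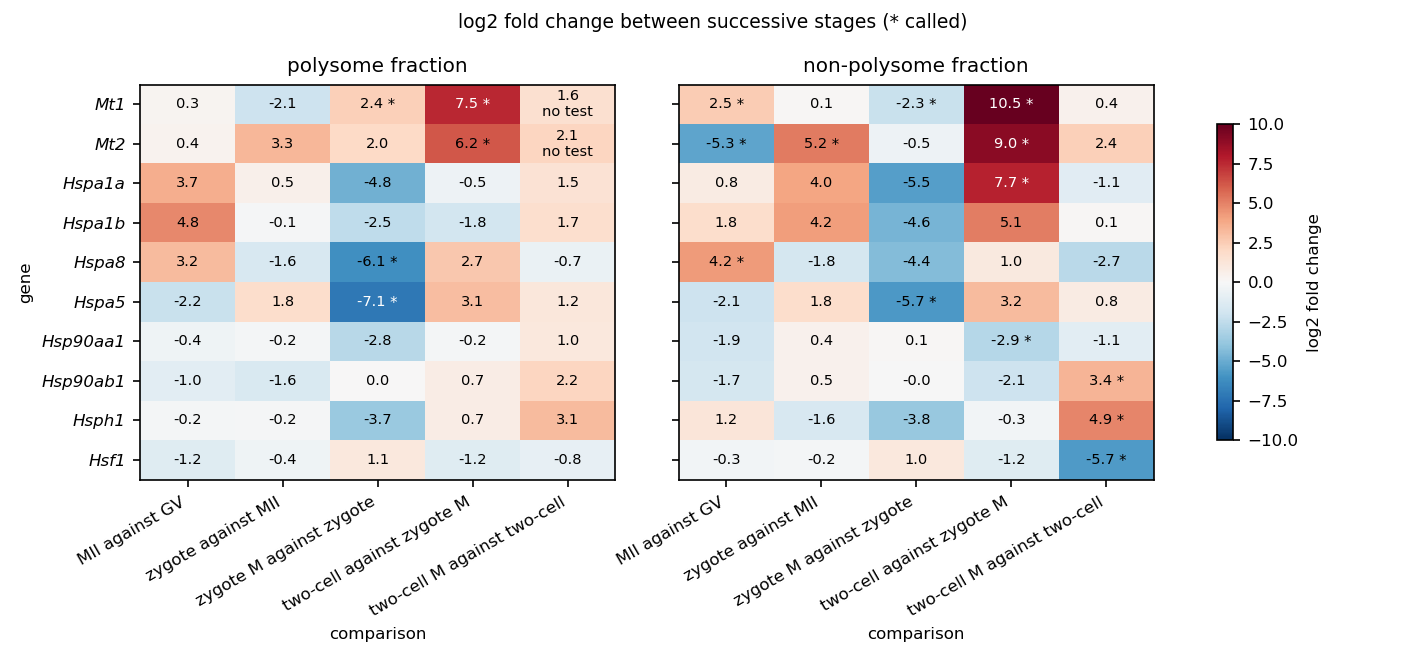
log2 fold changes of the 10 genes (rows) between successive stages (columns) in the polysome (left) and non-polysome (right) fraction. Colour and number give the log2 fold change, * marks a call at an adjusted p under 0.05 and a fold beyond 2, and values of genes at the 0.01 offset depend on it. From zygote M to two-cell embryos Mt1 and Mt2 rise by 6.19 to 10.54 in both fractions and Hspa1a by 7.73 in the non-polysome fraction. The Hspa1a value is uncertain, since reads of Hspa1a and Hspa1b can be assigned to either gene. From zygote to zygote M polysomal Hspa5 and Hspa8 are at -7.13 and -6.11, sizes that shrink to -2.40 and -2.67 with 1 FPKM added.

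Between the 2 fractions of a stage the counts of genes called were 1 of 10 in GV oocytes (Mt2, 4.96% of all genes), 0 of 10 in MII oocytes (0.753%, with 0 at an unadjusted p under 0.05), 1 of 10 in zygotes (Mt1, 1.38%), 1 of 10 in zygote M (Hsp90aa1, 1.92%), 0 of 10 in two-cell embryos (16.1%, with 2 at an unadjusted p under 0.05) and 1 of 8 in two-cell M (Hsf1, 14.8%). In two-cell embryos Mt1 was at 201 to 325 FPKM in polysomes and 714 to 834 FPKM outside them. That difference of -1.51 ± 0.72 on the log2 scale missed the threshold (limma, adjusted p = 0.156). It passed with only those 6 libraries (0.0237) and with 1 FPKM added (0.00221). Hspa1a was at 0.01 to 11.4 FPKM in two-cell polysomes and 11.0 to 55.7 FPKM outside them (difference -7.51 ± 2.67, adjusted p = 0.0529). That difference was called with 1 FPKM added (adjusted p = 0.0135), with quantile normalization (0.04) and without non-polysome two-cell M replicate C (0.0492). Within two-cell M, Mt1 overlapped between the fractions, and Mt2 was lower in all 3 polysome libraries than in all 3 non-polysome ones.

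**Figure D5:**
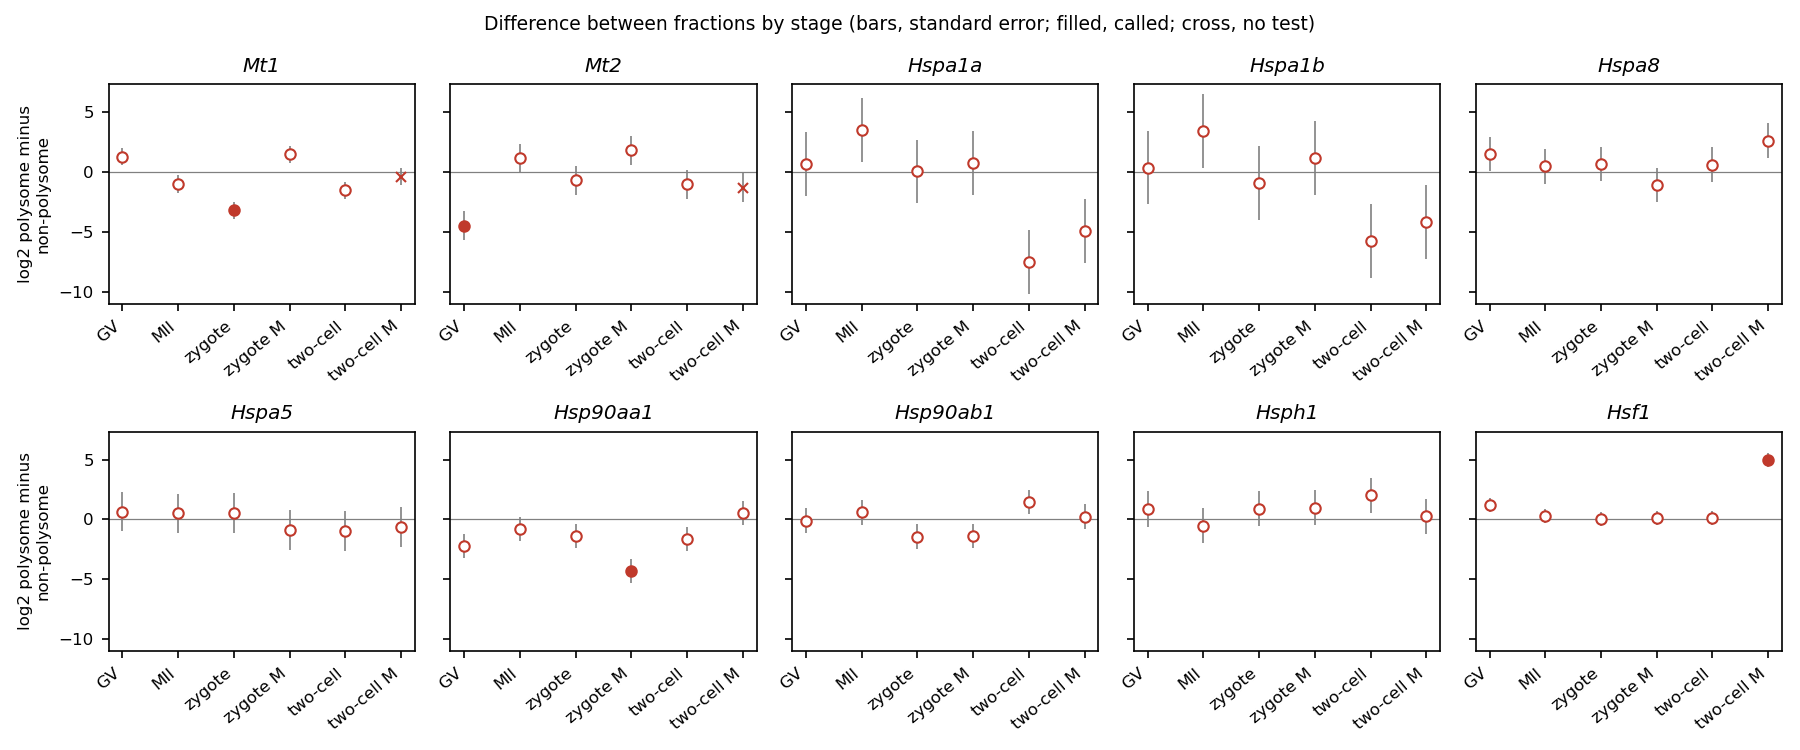
Difference between the polysome and the non-polysome fraction (vertical axis, log2 FPKM) at 6 stages for each of the 10 genes. Points are differences of means of 3 and 3 libraries, bars are standard errors from limma, filled points are calls, and crosses are values with no test. Hsf1 is near 0 or up to 1.23 at 5 stages and at 4.96 in two-cell M.

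Whether the change from a stage to the next differed between fractions was tested as the change in polysomes minus the change in the non-polysome fraction. It was called for 0 of 10 genes from GV to MII (0.163% of all genes), 0 of 10 from MII to zygote (0.0377%), 1 of 10 from zygote to zygote M (0.289%), 0 of 10 from zygote M to two-cell (2.76%), and 1 of 8 from two-cell to two-cell M (5.75%). The first call was Mt1, which rose in polysomes and fell outside them, a difference of 4.68 ± 1.02 on the log2 scale (limma, adjusted p = 0.0407), and with 1 of the 12 libraries left out in turn the adjusted p ran from 0.0113 to 0.140 and passed in 3 of 12 fits. The second was Hsf1, at 4.83 ± 0.84 (adjusted p = 0.000436), which passed in all 12 such fits and, at 2.17, with 1 FPKM added, but not with quantile normalization, at 1.98 (adjusted p = 0.0513). In the 3 steps with 0 calls, 2, 1 and 2 of the 10 genes had an unadjusted p under 0.05. From GV to MII these were Mt1 and Mt2, and the value of Mt2, chosen in part on its MII polysome level, is a description.

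Other chaperone, stress and metal genes were followed through 9 lists of 125 genes, of which 118 were in the table and 84 were tested. In polysomes 2 of 84 were called higher (3.36% of all genes) and 2 lower (2.75%) in MII than in GV oocytes, and 1 higher (3.24%) and 0 lower (2.51%) in zygote M than in zygotes. In M-phase two-cell embryos 2 were called higher (8.13%) and 18 lower (28.1%), with a median log2 fold change of -0.97 over the 84 genes against -1.17 over all genes. With quantile normalization the last split became 19 higher and 9 lower (18.6% and 18.7% of all genes), so the direction of the lists at this step depends on the scaling. The first 2 comparisons then had 10 higher and 11 lower (8.8% and 10.6% of all genes), and 8 higher and 6 lower (8.36% and 6.23%).

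Gpx1, a glutathione peroxidase that removes hydrogen peroxide, was the one listed gene called in all 3 M-phase comparisons. Its mean in polysomes was 65.2 ± 21.6 FPKM (SD, n = 3) in GV and 9.47 ± 2.71 FPKM in MII oocytes (log2 fold change -2.77, limma, adjusted p = 0.000149). It was 8.60 ± 1.74 FPKM in zygotes and 51.0 ± 8.33 FPKM in zygote M (2.58, adjusted p = 0.000335), and 127 ± 47.6 FPKM in two-cell and 430 ± 181 FPKM in two-cell M embryos (1.74, adjusted p = 0.00370). Gpx1 thus fell at meiotic maturation and rose in both embryonic M-phases. Prdx1, a peroxiredoxin, fell from 34.0 to 2.72 FPKM in two-cell M (log2 fold change -4.77, adjusted p = 9.94e-06), and Fkbp8, a membrane-bound Hsp90 cochaperone, fell from 27.8 to 2.53 FPKM (-3.85, adjusted p = 0.00110). Mtf1, the transcription factor of metallothionein genes, named after its values were seen, was at 2.71 FPKM in two-cell and 0.237 FPKM in two-cell M polysomes, given with no test.

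The genes with the pattern most like that of Mt2, by Pearson r over the 12 group means of log2 FPKM among 2278 protein-coding genes with a group mean of at least 10 FPKM, were Gm16381 and Gm2001 (both 0.966), Fthl17f (0.959), Rab20 (0.953) and Trim43b (0.951). All of them had their highest group mean in two-cell or two-cell M embryos outside polysomes, and Mt1 had an r of 0.898 with Mt2. Gm16381 and Gm2001 had the same highest group mean, 532 FPKM, so they may not be 2 separate matches. For Hspa8 they were Ndufv1 (0.954), Ccdc107 (0.938), Lsm3 (0.933), Grhpr (0.928) and Tyms (0.918), each highest in MII oocytes. For Hsp90ab1 the best 5 reached only 0.709 to 0.763 and were led by Prmt1. The 12 points are means of the same 36 libraries for every gene, and the values are a description.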

How the data were processed

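Polysome and non-polysome RNA of 6 stages was sequenced from SMART-seq v4 libraries, which do not mark strand. The authors pooled 10 gradient fractions into 2 fractions of 5, trimmed reads with Trim Galore 0.4.1, mapped them to GRCm38 with STAR 2.5.3a and deposited 1 table of normalized FPKM values made in Partek, with RefSeq genes named as the reference while gene columns in the table follow Ensembl. The 36 libraries with a column were used. Depth was recovered from the most frequent value of FPKM, less 0.01, times length among 7034 genes with 1 transcript, and 33.6% to 48.2% of values of at most 5 fragments were then whole within 0.05, so no count test was run.

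limma 3.58.1 (R 4.3.3, trended prior) was run on log2 FPKM as deposited, with 12 group means, with two-sided tests and Benjamini-Hochberg adjustment over 7967 genes (geometric mean from 0.1 FPKM up) within each of 9 polysome, 5 non-polysome and 6 between-fraction comparisons, and 5 differences between fractions that were added after the data were seen. Steps were tested on simulated data. The members and lists were chosen with earlier results of these data known. The naming rule took all 10 members, from the other lists in each of 3 M-phase comparisons up to 2 called genes a direction, by size of change, whose groups did not overlap and reached a mean of 10 FPKM in either, and the 5 genes most alike. Alternatives were 0.1 or 1 FPKM added, no minimum, a minimum mean of 1 FPKM, quantile normalization, only the libraries of the groups compared, protein-coding genes only, a replicate block and each library left out.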

Additional observations from a re-analysis of the deposited data

Results flagged for a closer look

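Changes of 2 genes differed between the fractions by the test of the difference itself. From zygote to zygote M, Mt1 changed by 4.68 ± 1.02 on the log2 scale more in polysomes than in the non-polysome fraction (limma, adjusted p = 0.0407), with a mean of 3 libraries in each of the 4 groups, and this was lost with 0.1 or 1 FPKM added. From two-cell to two-cell M, Hsf1 differed by 4.83 ± 0.84 (adjusted p = 0.000436), and this was lost with quantile normalization and with only the 12 libraries of the 2 stages, where the adjusted p reached 0.201. What lies behind either difference was not tested.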

How the results depend on the processing

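In polysomes 13 gene-by-comparison calls were made (1 of them of Mt2 in MII against zygote M, which is a description), against 25 with 1 FPKM added, 26 with quantile normalization and 31 with only the libraries of the 2 groups compared. The share of all genes called was higher too, in 7, 8 and 7 of the 9 polysome comparisons (MII against GV from 6.11% to 20.1%, 19.4% and 28.3%). With each of the 36 libraries left out in turn the count ran from 9 (without polysome zygote M replicate C) to 22 (without non-polysome two-cell M replicate C). Over all comparisons, 15 calls were gained without that library, 5 of Hsp90aa1, 5 of Hsph1, 3 of Hsf1 and 1 each of Hspa8 and Hspa1a, while the share of all genes called was higher in 9 of 9 polysome, 4 of 5 non-polysome and 6 of 6 between-fraction comparisons. In the non-polysome fraction 13 calls were made, against 8 with the replicate block, and 9 to 16 with a library left out. Between fractions 4 calls were made, against 8 with 1 FPKM added, 2 with the replicate block, and 3 to 6 with a library left out. The share of all genes called between fractions was higher in 3 of 6 comparisons with 1 FPKM added (in GV oocytes 12% against 4.96%), and with the replicate block it was lower in all 9 polysome, 5 non-polysome and 6 between-fraction comparisons. No call changed direction under any setting run. The cause of these shifts was not tested.

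Replicate letters were not treated as pairs. The labels do not say that both fractions of a letter come from 1 gradient. Deviations of such libraries had a mean correlation of 0.0756, with 6 of 18 pairs over 0.1, against 0.0194 and 5 of 80 for libraries of the same letter in another stage and fraction, so some pairing is possible. The replicate block gave 10 polysome calls against 13 and added a call of Hspa1b between fractions in two-cell embryos (0.0405). Among the calls lost with it were polysomal Hspa8 from zygote to zygote M (adjusted p = 0.0562), Mt1 between fractions in zygotes (0.0536) and Hsp90aa1 between fractions in zygote M (0.055), and the difference of Mt1 between fractions from zygote to zygote M. Values near the 0.01 offset rest on single fragments, and 3 libraries a group limit every test. One spread per gene is shared by all 12 groups.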
